A study of Mus musculus with 4 samples.

Results

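The Fos and Jun genes encode the subunits of AP-1 (activator protein 1), and all 7 of them, Fos, Fosb, Fosl1, Fosl2, Jun, Junb and Jund, were taken by symbol from a count table of 23874 genes. Transcripts were counted by RNA sequencing in mouse tissue engineered from neurospheres, balls of cultured neural stem cells, set in Matrigel, a basement membrane gel. The EF group (2 libraries) was stimulated at 150 mV/mm on 3 days, 30 min each day, with RNA taken after 7 more days in culture. The noEF group (2 libraries) was left unstimulated. Both groups grew in the same medium, DMEM/F12 with N2, B27 and 20 ng/ml recombinant human bFGF (basic fibroblast growth factor). The sample labels call both groups engineered tissue, whereas the series design speaks of stem cell suspensions as controls, so the identity of noEF rests on the sample labels. The labels give 3 replicates per group, of which 2 per group were analysed here, and do not say whether replicates came from separate cultures, so the p-values measure the spread between these libraries, which may be technical.

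AP-1 is a pair of basic leucine zipper (bZIP) proteins held together by their zippers. Fos proteins typically bind DNA with a Jun partner rather than with each other, whereas Jun proteins can also pair among themselves. The pair reads the DNA element TGANTCA (C or G at the open base) and related elements. Fos, Fosb, Jun and Junb are immediate early genes that growth factors and neuronal activity switch on within minutes. Jun also activates its own promoter, and Jund is expressed steadily in most cells. Fosl1 and Fosl2 follow later and lack the strong activation domain of Fos. In the nervous system Fos is used as a marker of recently active neurons, and FosB has a truncated, stable splice form that gene counts cannot separate from the full one.

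Markers of the labelled tissue were present. Nes and Sox2, which mark neural progenitors, averaged 125 and 337 CPM (counts scaled to library size) over the 4 libraries, and the astrocyte gene Slc1a3 averaged 2711 CPM. Of the neuronal genes, Map2 averaged 479.6, Dcx 17.7, Syn1 12.2, Tubb3 11.6 and Rbfox3 1.35 CPM. All 5 microglia and macrophage markers (Aif1, Cx3cr1, Csf1r, Itgam and Ptprc) had 0 counts in every library, and all 5 endothelial markers averaged under 1 CPM. Total counts ran from 33748880 to 34554537 per library. Spearman's rho of log2 CPM across tested genes was 0.991 between the EF libraries, 0.990 between the noEF libraries and 0.978 to 0.987 between libraries of different groups.

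The start regions of 4 members are shown, picked with their values known. Of these, Fosl2 and Junb were called lower in EF in the main test given below, and Fos and Jun were not called. Each runs 5′ to 3′ on the gene's own strand, from 250 bases before to 50 bases after the transcript start annotated by RefSeq (GRCm38.p6). Capitals mark matches to TGANTCA, to TGACNTCA (the 1-base-longer form that includes the cyclic AMP response element) or to TGACG (part of that element), each searched on both strands, with TGACG lying inside any TGACNTCA whose open base is G. The CArG box, which binds serum response factor, was searched as well.
Fos: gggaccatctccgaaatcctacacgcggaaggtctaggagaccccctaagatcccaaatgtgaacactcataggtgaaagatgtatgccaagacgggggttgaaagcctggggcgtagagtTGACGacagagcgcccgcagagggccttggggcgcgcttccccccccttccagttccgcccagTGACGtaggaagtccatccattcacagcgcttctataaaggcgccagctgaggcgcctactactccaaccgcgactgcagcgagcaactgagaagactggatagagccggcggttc
Jun: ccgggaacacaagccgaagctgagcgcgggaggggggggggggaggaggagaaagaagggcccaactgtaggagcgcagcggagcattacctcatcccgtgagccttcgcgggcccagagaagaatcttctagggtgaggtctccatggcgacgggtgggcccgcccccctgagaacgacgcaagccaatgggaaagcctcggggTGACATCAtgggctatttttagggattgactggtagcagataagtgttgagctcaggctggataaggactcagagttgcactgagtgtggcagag
Fosl2: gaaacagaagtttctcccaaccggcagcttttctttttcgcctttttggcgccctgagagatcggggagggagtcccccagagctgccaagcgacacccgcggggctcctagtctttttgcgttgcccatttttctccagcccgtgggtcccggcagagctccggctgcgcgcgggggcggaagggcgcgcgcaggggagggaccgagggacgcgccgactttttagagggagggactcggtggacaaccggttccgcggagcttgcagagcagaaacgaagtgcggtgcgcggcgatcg
Junb: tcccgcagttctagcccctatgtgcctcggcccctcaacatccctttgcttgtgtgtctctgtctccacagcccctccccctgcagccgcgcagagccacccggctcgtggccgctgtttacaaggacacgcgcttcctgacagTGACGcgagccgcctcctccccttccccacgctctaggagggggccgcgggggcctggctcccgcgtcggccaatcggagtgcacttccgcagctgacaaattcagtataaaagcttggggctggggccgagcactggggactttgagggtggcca
The Fos region lies at chr12:85473640-85473939 on the plus strand and holds TGACG starting 129 and 66 bases before the start. The second of these opens the cyclic AMP response element of the Fos promoter, which is known to bind CREB. The Jun region (chr4:95052173-95052472, minus strand) holds TGACATCA starting 45 bases before the start, known from the human JUN promoter as the AP-1 variant through which c-Jun acts on its own gene. The Junb region (chr8:84978699-84978998, minus strand) holds TGACG starting 106 bases before the start, and the Fosl2 region (chr5:32136222-32136521, plus strand), whose start lies 671 bases inside the GENCODE gene, had no match. TGACG was present in 20.8% of the 32851 mouse start regions of this length, TGACNTCA in 8.83%, TGANTCA in 7.81% and the CArG box in 1.63%. Of the 7 members 6 were in the RefSeq table. Fosb also held TGACG, starting 60 bases before its start, the Jund window, which lies 1210 bases upstream of the GENCODE start, held no match, and none of these 6 windows held TGANTCA or a CArG box. A match or its absence describes the letters of these windows only, and the motifs were chosen after the sequences had been seen. A CArG box or other site more than 250 bases before the start, in Fos or any other member, was outside the search.

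Fos was by far the most abundant AP-1 transcript in this tissue. Levels were compared between genes as CPM per kb of exon, using the union of annotated exons of each gene. Fos had 395 and 411 CPM per kb in EF and 463 and 483 CPM per kb in noEF, and averaged over the 4 libraries it exceeded 99.5% of the tested genes with a known length, with 71 of 13438 genes above it. It made up 50.7% and 50.8% of the summed AP-1 level in EF and 51.9% and 55.1% in noEF. The 3 Jun genes came next. Jund averaged 139, Junb 127 and Jun 103 CPM per kb over the 4 libraries. Fosb averaged 14.5, Fosl2 14.0 and Fosl1 4.78 CPM per kb, the last close to the median tested gene at 4.64 CPM per kb.

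**Figure D1:**
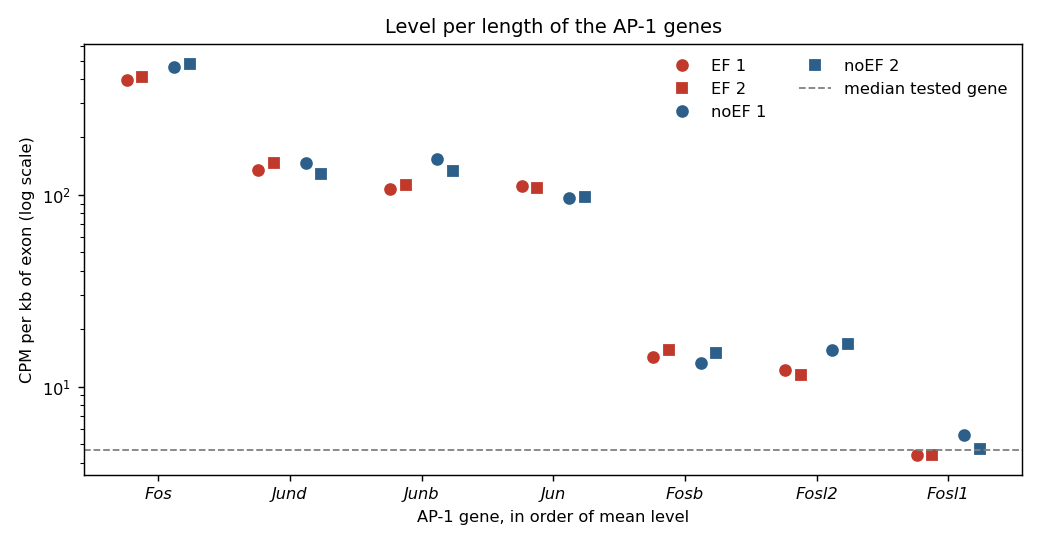
Level of each AP-1 gene in CPM per kb of exon (log axis), 1 point per library, with EF libraries in red left of noEF libraries in blue, and the median tested gene as a dashed line. Fos stands above 390 CPM per kb in every library, the 3 Jun genes lie between 95 and 153 CPM per kb, and Fosl1 lies at the median gene.

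The order within the middle of this range was not fixed. In EF, Jund (135 and 146 CPM per kb) stood above Junb (108 and 112) and Jun (111 and 108), which did not differ beyond their spread. In noEF, Junb (153 and 133 CPM per kb) and Jund (147 and 128) overlapped and both stood above Jun (95.8 and 97.4). Fosb and Fosl2 were at 14.3 and 15.5 against 12.2 and 11.5 CPM per kb in EF, and in the reverse order in noEF, where Fosb had 13.3 and 14.9 and Fosl2 15.6 and 16.8 CPM per kb. With the longest transcript as the length, Junb ranked above Jund. With the coding length, Jun moved to rank 2 ahead of Junb and Jund, and Fosl2 stood above Fosb. Fos stayed first and Fosl1 last under all 3 lengths. The summed Fos class stood at 426 and 442 CPM per kb in EF against 497 and 519.7 in noEF, and the summed Jun class at 354 and 366 in EF against 395 and 358 in noEF. The Fos class to Jun class ratio was 1.20 and 1.21 in EF and 1.26 and 1.45 in noEF.

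Setting EF against noEF asks which AP-1 transcripts differed 7 days after stimulation ended. Fosl2 and Junb were lower in EF, by 1.37-fold and 1.30-fold, and none of the 7 genes was called higher. In edgeR's quasi-likelihood test, adjusted by Benjamini-Hochberg over 14263 genes and called at an adjusted p under 0.05, 2 of 7 members were lower, against 4.99% of all tested genes (8.82% were called in either direction). None were higher, against 3.83% of all tested genes. At an unadjusted p under 0.05, 3 members were lower and 1 was higher, against 12.5% and 11.3% of all tested genes. DESeq2 and limma-voom also called 0 members higher, and called 3 and 2 members lower, with Fos added under DESeq2. Of all genes tested by DESeq2, 6.88% were called lower and 4.31% higher. Of those tested by limma-voom, 4.37% were called lower and 2.81% higher. The median log2 fold change of the 7 genes, EF minus noEF, was -0.23, beside 0.01 over all tested genes. This median depended on the setting. With each library corrected for its trend on exon length and GC content, the middle value of the 7 was -0.04 (Fosl1). The median over all genes was then -0.01. All 7 members passed the filter on low counts. The groups did not overlap in 5 of 7 members, 4 lower and 1 higher in EF, which is to be read against 54.4% of all tested genes with non-overlapping groups (27.6% higher and 26.8% lower). Of all calls 43.4% were higher with TMM scaling and 69.3% with library totals in place of TMM, and with library totals Jun was called higher as well.

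**Figure D2:**
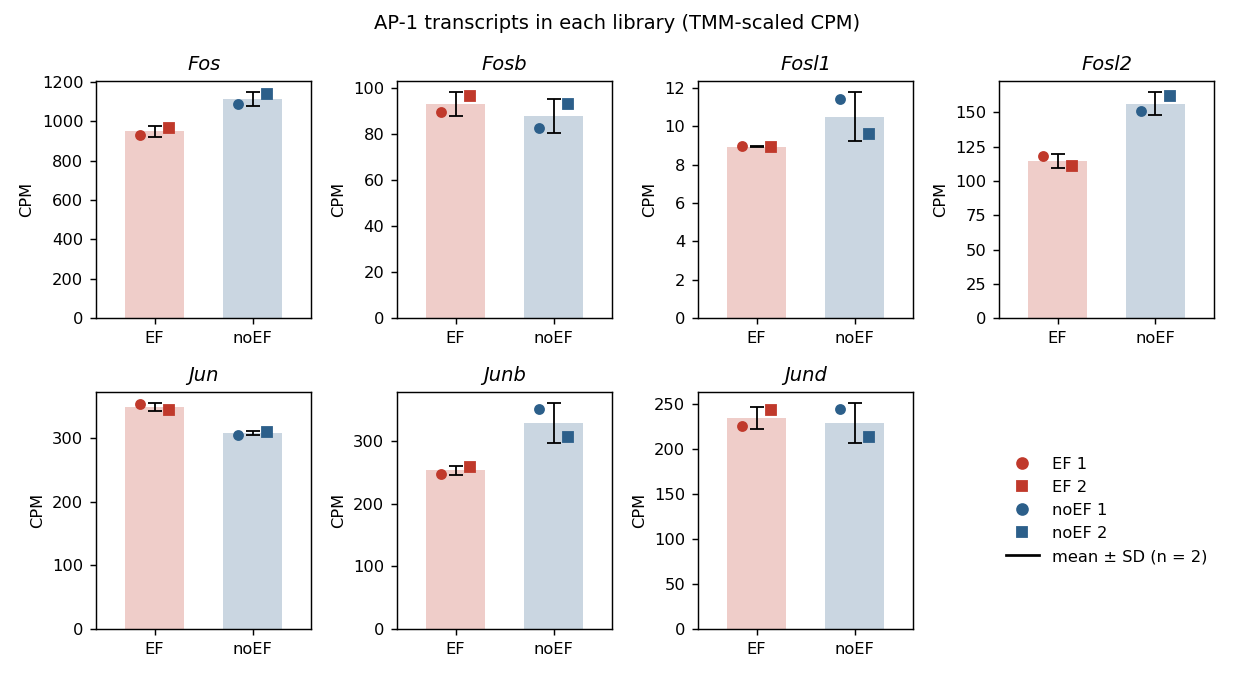
CPM of each AP-1 gene in the 2 EF libraries (red, left) and the 2 noEF libraries (blue, right), with bars at the mean and error bars of 1 SD (n = 2 each). Fosl2 and Junb lie lower in both EF libraries than in both noEF libraries, and the groups overlap for Fosb and Jund.

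Among the Fos genes, Fosl2 (ENSMUSG00000029135, GRCm38 chromosome 5, 32135801 to 32157842) had 118 and 111 CPM in EF, against 151 and 162 CPM in noEF. Both EF libraries were below both noEF libraries, and the gap between groups was wider than either replicate gap. Fosl2 encodes Fra-2, a Fos protein that accumulates after Fos itself. Its EF mean was 114 ± 4.99 CPM, and its noEF mean 156 ± 8.15 CPM (SD, n = 2 each). On the log2 scale it fell by 0.45 (SE 0.09, edgeR adjusted p = 0.00515). Fosl2 was called in each of its 13 alternatives, leave-one-out fits included, between -0.53 and -0.37 with edgeR, DESeq2 or limma-voom adjusted p-values up to 0.0323. No gene of the table shares its exons.

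Fos (ENSMUSG00000021250, chromosome 12, 85473890 to 85477273) had 929.5 and 966 CPM in EF, against 1089 and 1137 CPM in noEF. The groups did not overlap, yet the difference did not pass the test. Fos stood at -0.23 on the log2 scale (SE 0.08, 95% interval -0.40 to -0.06, edgeR adjusted p = 0.0798). Fos was called lower by DESeq2 (adjusted p = 0.0266) and by edgeR without a filter on low counts (adjusted p = 0.0496). Correcting each library for its trend on exon length and GC content (hereafter the length and GC correction) gave -0.12 (edgeR adjusted p = 0.333).

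Fosb (ENSMUSG00000003545, chromosome 7, 19302696 to 19310051) had 89.5 and 96.6 CPM in EF, against 82.8 and 93.2 CPM in noEF. These ranges overlap, and the log2 fold change of 0.08 had a 95% interval of -0.13 to 0.29 (edgeR adjusted p = 0.673). It stood at 0.17 both with library totals and without noEF 2, and at -0.00075 without noEF 1.

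Fosl1 (ENSMUSG00000024912, chromosome 19, 5447547 to 5455946), which encodes Fra-1, was the rarest member, with 320 and 311 counts in EF and 371 and 323 counts in noEF. That made 8.96 and 8.91 CPM in EF, against 11.4 and 9.60 CPM in noEF. Both EF libraries were lower, but noEF 1 stood apart from noEF 2 by as much as the groups differed. The log2 fold change of -0.23 had a 95% interval of -0.64 to 0.18 (edgeR adjusted p = 0.514), and it was -0.04 after the length and GC correction. Of the exon bases of Fosl1 57.2% lie over exons of Ccdc85b on the opposite strand. Ccdc85b had 86.5 and 92.8 CPM in EF against 113 and 88.2 CPM in noEF (log2 fold change -0.17, edgeR adjusted p = 0.418). The library protocol names no step that keeps the strand, so reads of the shared stretch cannot be told apart and the values of Fosl1 are uncertain.

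Among the Jun genes, Junb (ENSMUSG00000052837, chromosome 8, 84974484 to 84978718) had 248 and 259 CPM in EF, against 352 and 306 CPM in noEF. Both EF libraries were below both noEF libraries, and noEF 1 was the highest. JunB is a weaker activator than c-Jun and can hold it back by taking its partners. Its EF mean was 253 ± 7.43 CPM, and its noEF mean 329 ± 31.9 CPM (SD, n = 2 each). On the log2 scale it fell by 0.38 (SE 0.09, edgeR adjusted p = 0.0163). The call was lost without EF 1 (-0.35, edgeR adjusted p = 0.113) and without noEF 1 (-0.27, edgeR adjusted p = 0.126). After the length and GC correction the value was -0.24 and still called (edgeR adjusted p = 0.0310), but not with the replicate block added (edgeR adjusted p = 0.0939). Exons of Prdx2, on the opposite strand, cover 7.52% of the exon bases of Junb. Prdx2 had 678 and 719 CPM in EF against 891 and 767 CPM in noEF (log2 fold change -0.25, edgeR adjusted p = 0.0952), so it lay lower in the same libraries. Its part in the result for Junb was not tested.

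Jun (ENSMUSG00000052684, chromosome 4, 95049034 to 95052222), which encodes c-Jun, had 354 and 345 CPM in EF, against 306 and 311 CPM in noEF. It was the 1 member whose EF libraries both stood above both noEF libraries, with replicate gaps smaller than the difference. The log2 fold change of 0.18 (SE 0.08, 95% interval 0.01 to 0.35) did not pass (edgeR adjusted p = 0.182). Jun was called higher with library totals (0.27, edgeR adjusted p = 0.0435) and after the length and GC correction (0.25, edgeR adjusted p = 0.0259). The antisense gene Junos covers 7.28% of its exon bases and is not among the counted genes.

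Jund (ENSMUSG00000071076, chromosome 8, 70698949 to 70700616) had 226 and 243 CPM in EF, against 244 and 213 CPM in noEF. The groups overlapped and the log2 fold change was 0.04 (95% interval -0.16 to 0.23, edgeR adjusted p = 0.862). It moved to 0.19 after the length and GC correction and to -0.063 without noEF 2. The antisense gene model Gm11175 covers 52.6% of its exon bases and is not among the counted genes. With no step named that keeps the strand, reads of that stretch cannot be assigned to a strand, so the values of Jund are uncertain. Jund has the highest GC content of the 7 transcripts, 67.1%, against 51.9% for Fos.

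**Figure D3:**
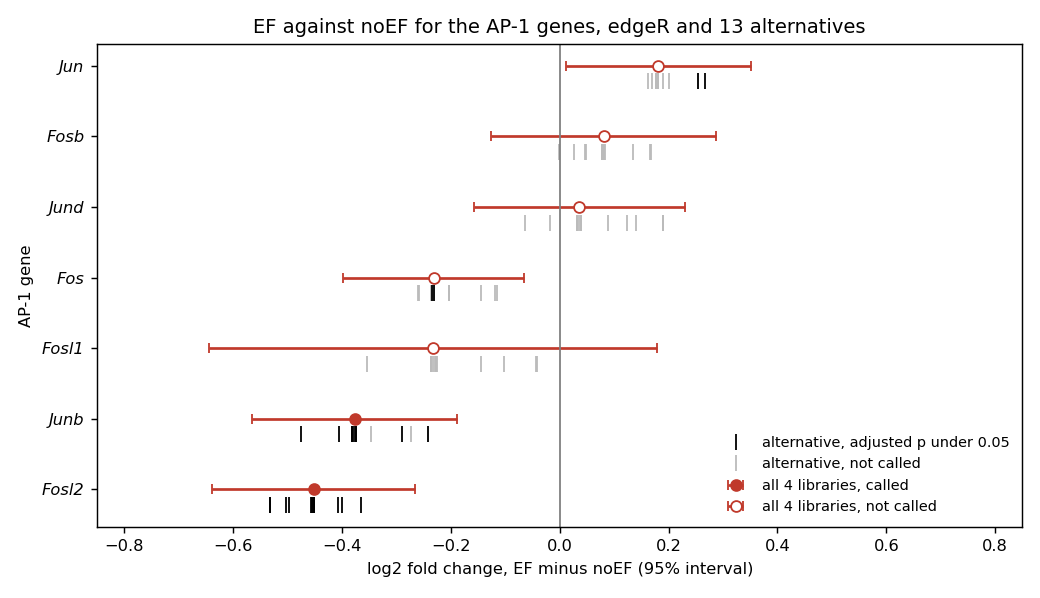
Log2 fold change of each AP-1 gene, EF minus noEF, with its 95% interval (circles, filled where called) and the values under 13 alternative settings (ticks, black where called). Fosl2 keeps its call under all 13, Junb under 10, and Fos and Jun are called under 2 each.

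Bulk counts cannot tell fewer cells of a type from less RNA per cell. Markers of progenitors and astrocytes lay on both sides. The summed level of 5 progenitor markers (Nes, Sox2, Pax6, Vim and Fabp7) was 4912 and 5216 CPM in EF against 6675 and 6282 CPM in noEF, with 1 marker, Fabp7, called lower. Sox2 and Vim also lay lower in both EF libraries, whereas Nes lay higher (135 and 126 CPM in EF against 122 and 115 CPM in noEF), and none of the 3 passed. Of 5 astrocyte markers Gfap and Aqp4 were lower and 3 did not pass, with Slc1a3 at 2992 and 2733 CPM in EF against 2484 and 2638 CPM in noEF, and their summed level of 3716 and 3432 CPM in EF overlapped the 3624 and 3799 CPM in noEF. Of 5 neuronal markers 0 were called in edgeR, and of 5 oligodendrocyte lineage markers 1, Pdgfra, was lower. Of 5 fibroblast and mural markers 1 was higher, Acta2, smooth muscle actin, at 8.68 and 4.84 CPM in EF against 3.13 and 2.88 CPM in noEF (edgeR adjusted p = 0.0309), and the other 4 averaged under 1 CPM. The part of these markers in the AP-1 results was not tested.

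Ratios between members within a library do not depend on how libraries are scaled. Of the 21 pairs of members, 16 had ratios that did not overlap between EF and noEF, and in 13 the difference of mean log2 ratios was larger than the larger replicate gap. Over all pairs of the 13932 tested genes with a count in every library, 52.6% had ratios that did not overlap and 39.4% had a difference larger than the larger replicate gap. With 2 libraries per group the smallest two-sided exact permutation p is 0.333, so these ratios are descriptions. The pairs given here were chosen after their values were seen. Fosl2 over Jun, in CPM per kb, was 0.110 and 0.106 in EF and 0.163 and 0.172 in noEF, a difference of -0.63 in log2 ratio against a replicate gap of at most 0.08. Jun over Junb was 1.03 and 0.962 in EF and 0.627 and 0.732 in noEF. By the union of exons, the Jun transcript was thus about level with Junb in EF libraries and below it in noEF libraries. This order depends on the length used, whereas the change of the ratio between groups does not. By longest transcript Jun lay below Junb in EF as well (111 and 108 against 137 and 143 CPM per kb). By coding length Jun lay above Junb in EF (353 and 344 against 240 and 251 CPM per kb). In noEF it then had 305 and 310 against 341 and 297 CPM per kb. Fosb over Fosl2 was 1.18 and 1.35 in EF and 0.852 and 0.891 in noEF, and Junb over Jund was 0.797 and 0.771 in EF and 1.04 in each noEF library. Fos over Jun was 3.56 and 3.80 in EF and 4.83 and 4.96 in noEF. The ratio of the 2 called genes to each other, Fosl2 over Junb, overlapped between groups at 0.113 and 0.102 in EF and 0.102 and 0.126 in noEF. These ratios show unequal change between members, not which member of a pair changed.

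**Figure D4:**
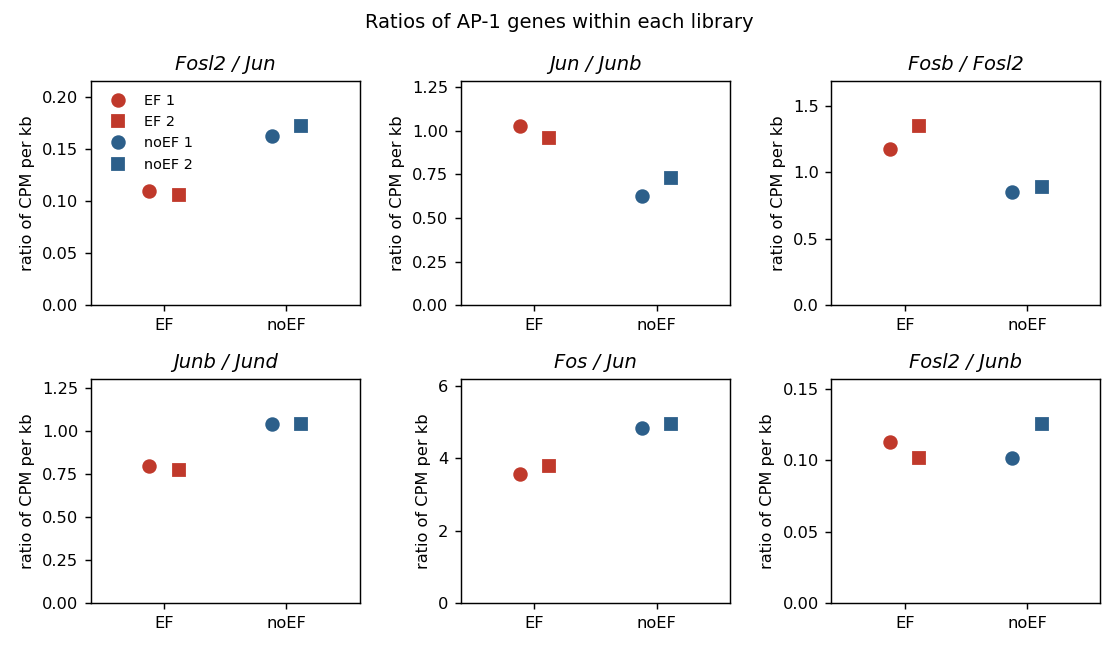
Ratio of CPM per kb between 2 AP-1 genes within each library, 1 point per library, EF in red on the left and noEF in blue on the right. Fosl2 / Jun, Junb / Jund and Fos / Jun lie lower in EF, Jun / Junb and Fosb / Fosl2 lie higher in EF, and Fosl2 / Junb overlaps.

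The members did not share a single pattern over the 4 libraries. By the Euclidean distance between log2 CPM centred over the 4 libraries, the closest members were Fosl1 and Junb (0.16) and Fosb and Jun (0.18), and the farthest were Fosl2 and Jun (0.64). Among 9253 other tested genes with a mean of at least 10 CPM, the genes nearest to Fos were BC037034, Spsb1 and Smoc1 (distances 0.01, 0.01 and 0.02). Those nearest to Fosl2 were Ssc5d, Scg3 and Fam20c (each 0.04). Nearest to Junb were Dera, Trappc1 and Rpain (0.02, 0.02 and 0.03), and nearest to Jun were Agfg1, Desi2 and St7l (0.01, 0.01 and 0.02). Rbmx, Lmo3 and Palld were nearest to Fosb, Trnau1ap, Morn4 and Gins4 to Fosl1, and Exosc3, Chpf and Prpf31 to Jund, all within 0.03. With only 4 values per gene and this many candidates, close neighbours arise easily, so these names are descriptions only.

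Genes around AP-1 were taken from 4 lists, of bZIP partners, upstream regulators, turnover factors and targets. Their counts are to be read against 8.82% of all tested genes called by edgeR, 3.83% higher and 4.99% lower. For DESeq2 the shares were 4.31% higher and 6.88% lower, and for limma-voom 2.81% and 4.37%. Of 15 other bZIP genes whose products can pair with Fos or Jun or compete with them, 12 were tested and 0 were called by edgeR, with 2 lower and 0 higher at an unadjusted p under 0.05. DESeq2 and limma-voom also called 0. Batf, Batf2 and Nrl had 0 counts in every library. Atf4, the stress response factor, had 201 CPM in each EF library and 230.4 and 230.7 CPM in the noEF libraries (log2 fold change -0.20, edgeR adjusted p = 0.148). The small Maf genes Mafk and Maff were at -0.32 and -0.21, and Batf3 at -0.77 with a mean of 1.70 CPM (edgeR adjusted p = 0.177, 0.434 and 0.427). Jdp2, a repressor that pairs with Jun, was at -0.12 and Atf3, induced by stress, at -0.01, and neither passed.

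Of 24 kinases, phosphatases and promoter-binding factors that act on the AP-1 genes, edgeR called 2 higher and 0 lower in EF. At an unadjusted p under 0.05 there were 3 higher and 2 lower, and DESeq2 and limma-voom called the same numbers as edgeR. The median over the 24 was 0.09 on the log2 scale. Srf, serum response factor, which drives immediate early promoters through the CArG box, had 67.0 and 59.8 CPM in EF against 41.4 and 47.9 CPM in noEF. Both EF libraries were higher, by 0.51 on the log2 scale (SE 0.11, edgeR adjusted p = 0.0130), and the call was lost without EF 1 (0.42, edgeR adjusted p = 0.132). Dusp6, a MAP kinase phosphatase, had 30.6 and 36.2 CPM in EF against 23.3 and 21.1 CPM in noEF. It was higher by 0.59 on the log2 scale (SE 0.14, edgeR adjusted p = 0.0173), and the call was lost without EF 2 (0.46, edgeR adjusted p = 0.137). The JNK genes Mapk8, Mapk9 and Mapk10, whose products phosphorylate c-Jun, were at 0.15, -0.01 and -0.08 and did not pass. Creb1 was at 0.25 (edgeR adjusted p = 0.232).

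Of 11 genes for turnover and cofactors of AP-1 proteins, edgeR called 2 lower and 0 higher in EF. At an unadjusted p under 0.05 there were 2 lower and 1 higher, and DESeq2 and limma-voom called 2 lower and 0 higher each. Rps6ka1, which encodes the kinase RSK1 of the family that phosphorylates c-Fos, had 39.1 and 36.9 CPM in EF against 60.9 and 50.6 CPM in noEF (log2 fold change -0.55, edgeR adjusted p = 0.0114). It lost its call without EF 2 (-0.51, edgeR adjusted p = 0.0517) and without noEF 1 (-0.41, edgeR adjusted p = 0.0588). Cops5, whose product Jab1 is a coactivator of c-Jun, had 102 and 109 CPM in EF against 141 and 130.2 CPM in noEF (log2 fold change -0.36, edgeR adjusted p = 0.0218). It lost its call without EF 1 (-0.31, edgeR adjusted p = 0.165), without noEF 1 (-0.30, edgeR adjusted p = 0.106) and with library totals (-0.27, edgeR adjusted p = 0.0582). The ubiquitin ligase genes Fbxw7 and Cop1, which direct c-Jun to degradation, were at -0.09 and 0.05, and Itch, a ligase for c-Jun and JunB, was at 0.25, and none of the 3 passed.

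Genes given in textbooks as AP-1 targets moved in both directions. Of 20 such genes 12 were tested, of which edgeR called 2 higher and 2 lower, with a median log2 fold change of -0.16. DESeq2 called 2 higher and 3 lower, and limma-voom 2 higher and 1 lower. Plau, urokinase, had 6.67 and 7.99 CPM in EF against 2.06 and 2.14 CPM in noEF, higher by 1.80 on the log2 scale (SE 0.28, edgeR adjusted p = 0.00128). Ccnd1, the cyclin of the G1 phase, had 698 and 689 CPM in EF against 496 and 518 CPM in noEF (log2 fold change 0.45, edgeR adjusted p = 0.00255), and 23.4% of its exon bases lie over LTO1 on the opposite strand. Gfap, the astrocyte filament gene, had 237 and 241 CPM in EF against 641 and 671 CPM in noEF (log2 fold change -1.45, edgeR adjusted p = 1.06e-07). Timp1, an inhibitor of matrix proteases, had 7.76 and 7.02 CPM in EF against 13.9 and 11.0 CPM in noEF (log2 fold change -0.75, edgeR adjusted p = 0.0307). Timp1 kept its call in 7 of 13 alternatives and stood at -0.37 after the length and GC correction (edgeR adjusted p = 0.265), and it lost the call without EF 1, EF 2 or noEF 1 (edgeR adjusted p = 0.0596, 0.0940 and 0.220). Cd44 and Hmox1 were at -0.28 and -0.27 and Ccl2 at 0.67, without passing. Mmp3, Mmp13, Il6 and Th had 0 counts in every library.

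**Figure D5:**
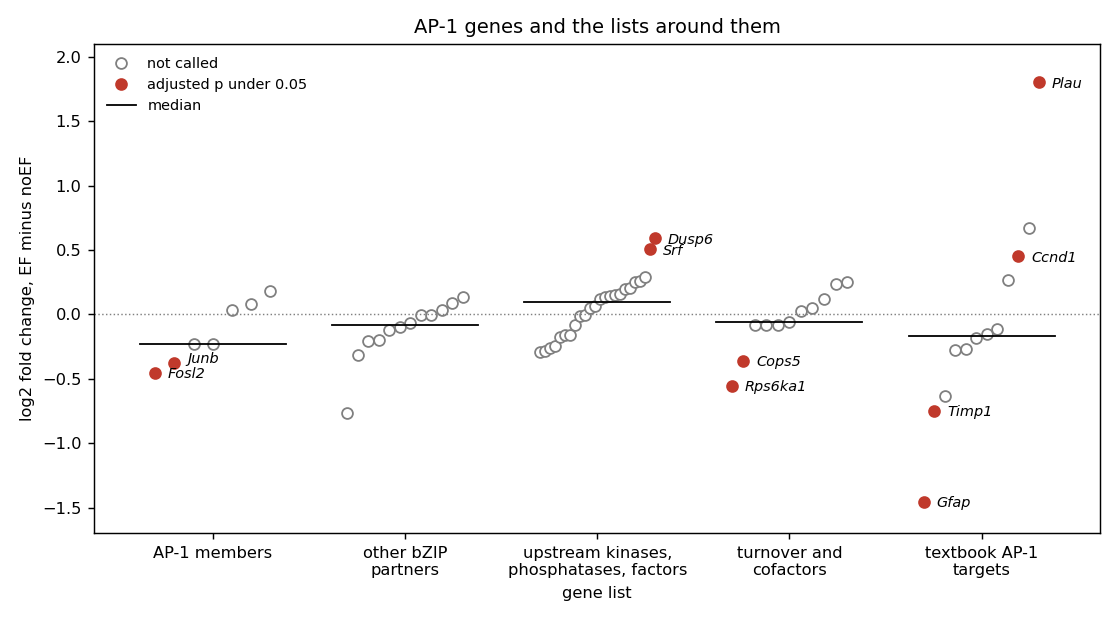
Log2 fold change, EF minus noEF, of each tested gene in the AP-1 family and the 4 lists around it, 1 circle per gene, filled where called, with the list median as a line. In each list most circles are open and lie on both sides of 0, with Plau at 1.80 and Gfap at -1.45 the widest.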

How the data were processed

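Whole-number counts per gene for 4 libraries (2 EF, 2 noEF) were deposited by the authors, not scaled, as the values show. PolyA RNA was captured, fragmented, copied from random hexamers and amplified, per the labels' protocols. Per the submitters' processing notes, HISAT2 2.0.4, StringTie 2.2.1, DESeq2 1.44.0 and GRCm38 were used. The counting step is not given in the sources used here. Columns were matched to samples by library name.

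filterByExpr removed low genes (count minimum 10, total minimum 15), and the rest were TMM-scaled and tested in edgeR 4.0.16 (R 4.3.3) with the robust quasi-likelihood F test, adjusted over 14263 genes and called under 0.05. The method was run on simulated counts with a common spread for all genes and changes larger than those of Fosl2 and Junb. That run therefore does not bear on the calls of these members. The standard error is the log2 fold change over the square root of F, and intervals are unadjusted. CPM use TMM-scaled totals. Lengths, coordinates and GC came from GENCODE M21 (GRCm38), start regions from RefSeq (GRCm38.p6). The length and GC correction used a spline fit per library (5 degrees of freedom each) as an offset. Alternatives used DESeq2 1.42.0 and limma 3.58.1, other scalings, filters, lengths, the replicate block and each library left out.

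Members and lists were chosen with earlier results of these data known. Named genes are the 7 members, the called genes of each list (or the 4 with the smallest p), and genes overlapping or nearest to a member. Other list genes were added after their values were seen. At these depths the counting error (1 over the square root of the count) was 0.511% to 0.549% for Fos and 5.19% to 5.67% for Fosl1, the rarest member. It covers counting only, since PCR copies are not independent molecules.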

Additional observations from a re-analysis of the deposited data

How the results depend on the processing

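Fosl2 was called lower under all 13 alternatives. Junb was called under 10 and lost its call without EF 1, without noEF 1 and with the replicate block and the length and GC correction together. Fosl1 was not called under any. Left-out libraries put Fosb between -0.00075 and 0.17 and Jund between -0.063 and 0.14. Members called higher numbered 1 (Jun) with library totals and 1 after the length and GC correction, against 0. Of all tested genes 7.98%, 4.46% and 3.83% were higher in these 3 fits. Members called lower numbered 1 with the replicate block and correction (3.53% of all tested genes lower), against 2 (4.99%). They numbered 3 with DESeq2 (6.88% of all tested genes lower) and 3 without a filter (6.95%), where Fos was called lower as well. Over all genes, 1138 were higher with library totals, 915 higher and 1203 lower without a filter, and 314 higher with the replicate block and correction, against 546 higher and 712 lower. A left-out library gave 217 to 790 higher and 337 to 1065 lower genes, the lowest without EF 1. The replicate block alone gave 410 higher and 568 lower genes and changed no call of a member. The numbers share no stated batch, and EF 2 is the library that the submitters named E3, so the block is not a known pairing. The deviations of EF 1 and noEF 1 from their group means had a correlation of -0.09. By coding length the level per length ranked Jun 2, Jund 4, Fosl2 5 and Fosb 6, and by longest transcript Junb 2 and Jund 3. Across the 13 alternatives the upstream list had 1 to 3 higher and 0 to 2 lower genes, the turnover list 0 to 1 and 0 to 2, the target list 2 to 3 and 1 to 4, and the other bZIP list 0 and 0. Each left-out fit leaves 1 library in a group, which is assumed to vary like the other group.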
